A study of Mus musculus with 14 samples.

Results

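The genes of the TGF-beta and BMP pathways were followed through mouse lung development. The 45 genes were chosen by symbol: 11 ligands, 11 receptors, 8 SMADs, 4 latent TGF-beta binding proteins, 4 secreted antagonists, 4 membrane and intracellular inhibitors and 3 ID target genes. Of these, 44 had a probe set that carried their symbol alone, among 18193 genes represented on the array in this way, and Bmp3 was not analysed here. For a gene with several probe sets, the one with the highest mean over all arrays stood for it.

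RNA of whole lungs had been measured on 14 Affymetrix oligonucleotide arrays, 2 at each of 7 time points: embryonic day (E) 12, 14, 16 and 18, postnatal day (P) 2 and 10, and an Adult group whose titles give postnatal day 30. All mice were of the outbred ICR strain and untreated, and every sample carries the sex label female. The RNA came from pooled lungs, and it is not stated whether both arrays of a time point came from separate pools, so the p-values measure only the spread between these arrays, which may be technical. All values are log2 signals, so that a difference of 1 is a doubling, and signals of different probe sets were not set against each other. No detection calls were used, so that the size of a difference is uncertain where a mean lies below the array medians (6.55 to 6.62).

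TGF-beta, activin and BMP ligands bind pairs of type I and type II receptor kinases. The type I receptor then phosphorylates receptor SMADs (SMAD2 and SMAD3 mainly for TGF-beta and activin, SMAD1, SMAD5 and SMAD9 mainly for BMP), which enter the nucleus with SMAD4, while SMAD6 and SMAD7 hold the pathway back. TGF-beta is secreted in a latent form that is tethered to the matrix by latent TGF-beta binding proteins (LTBPs), whereas BMPs are caught outside the cell by antagonists such as noggin and gremlin. In the lung, BMP signaling is known for its part in branching and in the vessel wall, and TGF-beta for its part in the mesenchyme and in the formation of alveoli.

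The lung changed its set of pathway genes in a few distinct ways. Bmp6, the endothelial receptor Acvrl1 and Bmpr2 rose towards Adult, and Tgfbr2 rose up to E18 and then levelled off. Ltbp2, Ltbp3, Tgfb2, Tgfb3 and Bmp2 were highest at P10, and Bambi fell towards Adult. The time-point means of Smad4, in contrast, stayed within 0.19 log2 units of each other by the probe set that stands for it. Promoter sequence is shown for 3 genes, which do not cover all these shapes: Ltbp2 and Tgfb2 had a maximum at P10, and Id3, a BMP target, had a minimum at E18. Each is the 250 bases before the gene start of RefSeq in build GRCm38.p6, on the strand of the gene: chr12:84876492-84876741 (minus strand) for Ltbp2, chr1:186705990-186706239 (minus strand) for Tgfb2 and chr4:136143572-136143821 (plus strand) for Id3. Capitals mark CAGAC, the core of the sites that SMAD3 and SMAD4 can bind, on either strand (GTCTG on the strand shown).
Ltbp2: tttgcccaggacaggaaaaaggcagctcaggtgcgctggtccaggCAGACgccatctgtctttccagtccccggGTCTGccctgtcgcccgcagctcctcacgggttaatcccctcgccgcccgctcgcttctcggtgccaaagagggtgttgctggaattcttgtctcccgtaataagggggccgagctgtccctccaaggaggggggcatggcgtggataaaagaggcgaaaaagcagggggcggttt
Tgfb2: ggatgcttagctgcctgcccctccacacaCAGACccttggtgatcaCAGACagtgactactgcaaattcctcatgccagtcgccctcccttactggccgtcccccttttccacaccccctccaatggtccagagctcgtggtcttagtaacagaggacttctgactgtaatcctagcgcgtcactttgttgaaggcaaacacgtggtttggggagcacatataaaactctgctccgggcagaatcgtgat
Id3: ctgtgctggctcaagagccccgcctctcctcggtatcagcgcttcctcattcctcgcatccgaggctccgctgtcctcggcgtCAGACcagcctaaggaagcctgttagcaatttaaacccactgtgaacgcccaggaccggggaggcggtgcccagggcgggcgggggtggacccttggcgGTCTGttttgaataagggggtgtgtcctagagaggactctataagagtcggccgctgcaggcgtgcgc
Each of these promoters held 2 copies of CAGAC, as did that of Smurf1. No other matched promoter of the 45 genes held more than 1, so the 3 shown are not typical in this. A promoter was matched for 31 of the 45 genes, and 14 of the 31 held CAGAC. This is near the share in all 27025 mouse promoters of this length, 42.1%. All 5 of the P10-maximum genes with a matched promoter held CAGAC (Tgfb2, Bmp5, Ltbp2, Ltbp3 and Grem1). Tgfb3 and Bmp2, with the same maximum, had no matched promoter. The genes were grouped by these same data, and Bmp5 and Grem1 left the group in some fits without a single array. A link of the motif to the maximum was not tested. The GC-rich element GGCGCC, which BMP SMADs can bind, was searched on both strands and was in 8 of the 31, against 9.54% of all promoters. The GC content of these 8 ran from 64% to 82%, and that of the matched promoters without it from 42.8% to 85.6%. No background of matched GC content was taken, so an excess of the element was not tested. The motifs can share a single base at an end, and the promoters of Grem1 and Smurf2 held both. A match of letters does not show that a factor binds there.

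Across the 7 time points, a gene was called changed when the moderated F test of limma gave an adjusted p under 0.05, its highest time-point mean (Max) was above 7 and its highest minus lowest mean (Range) was above 1.2. This held for 17 of the 44 genes (38.6%), where the same rule called 26.7% of all 18193 genes. Max was above 7, and the gene thus counted as measured, for 37 of the 44. Among the measured the shares were 45.9% of the pathway genes and 41.7% of all genes, so the pathway genes were near the background. By the probe sets that stand for them, the 7 genes with Max of 7 or less were Inhba, Inhbb, Smad9, Grem1, Nog, Chrd and Fst. The other probe set of Inhbb had a Max of 7.217 and was called changed.

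The changed genes were spread over the roles as follows. All 4 LTBPs, 5 of 10 ligands and 5 of 11 receptors did, against 2 of 8 SMADs, both of them inhibitory (Smad6 and Smad7), and 1 of 4 membrane and intracellular inhibitors (Bambi). None of the 4 secreted antagonists and none of the 3 ID genes did, but all 4 antagonists were under the Max threshold. These counts use the probe sets that stand for the genes. Another probe set of the receptor SMAD gene Smad5 (Range 2.16) and both others of Tgfbr1 (1.57 and 1.26) were called changed. Without the thresholds on Max and Range, 40 of the 44 passed the F test. Smad7 (Range 1.25) and Ltbp1 (1.23) lay just inside the Range threshold, and Smurf2 (1.18) and Acvr1b (1.17) just outside it. Among the 17, the highest mean was in Adult for 8 and at P10 for 6, at E12 for 2 and at E18 for 1 (Tgfbr3, whose Adult mean was close to it).

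**Figure D1:**
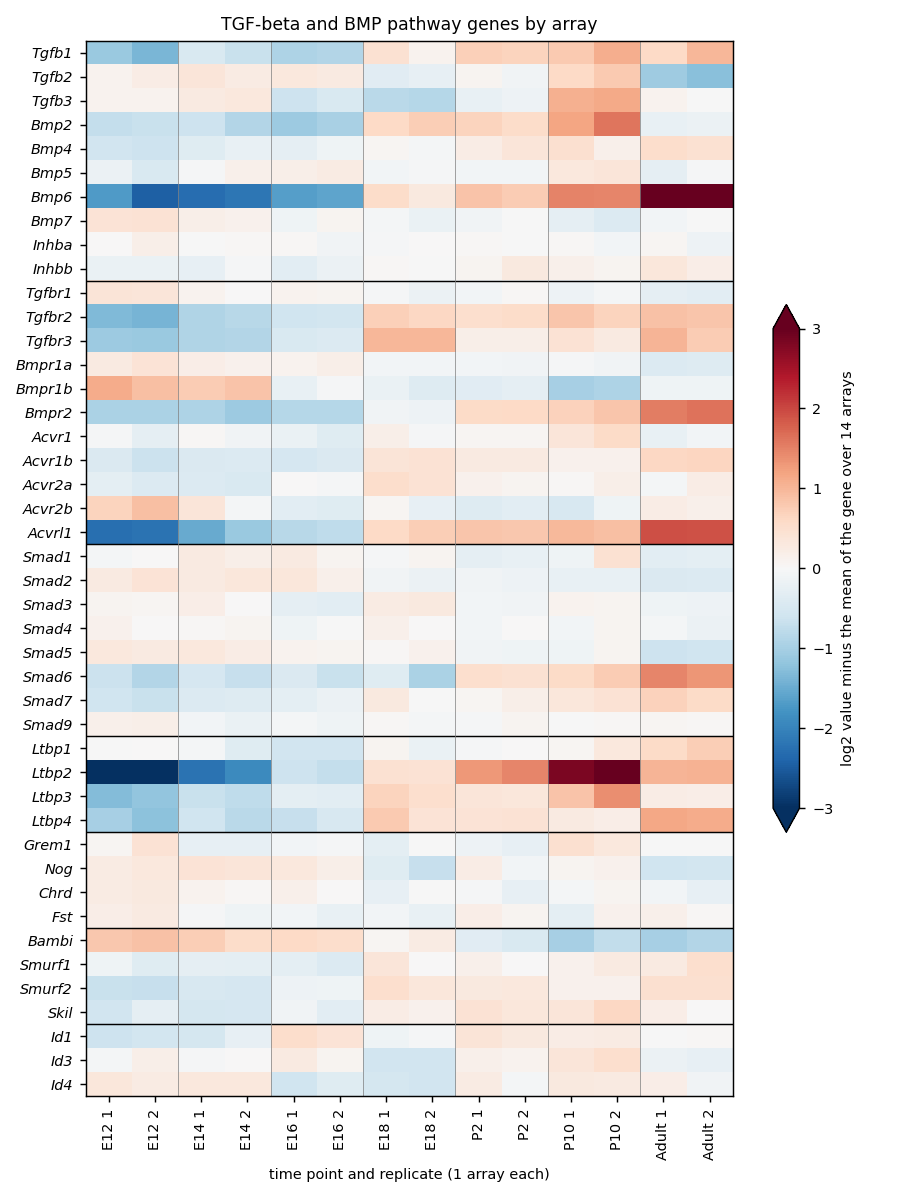
Log2 signal of the 44 genes on each of the 14 arrays, minus the mean of the gene over all arrays. Rows are genes ordered by role, columns are arrays in order of age with replicates side by side, and the colour scale is shared by all rows and saturates at 3 in either direction. Acvrl1, Bmp6 and Ltbp2 show the strongest contrast between E12 and the late arrays, and the SMAD rows are pale apart from Smad6.

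The 3 TGF-beta ligands followed different courses. Tgfb1, which encodes the form known for its part in immune control and matrix production, had 7.17 and 6.91 at E12, 7.83 and 7.60 at E14, 7.36 and 7.39 at E16, 8.73 and 8.39 at E18, 8.99 and 8.96 at P2, 9.07 and 9.36 at P10, and 8.89 and 9.27 in Adult. Every array from E18 on was above every earlier one, and P2, P10 and Adult lay close together. Tgfb1 was higher in Adult than at E12 by 2.04 (SE 0.16, limma, adjusted p = 5.37e-08), and the step from E16 to E18 took up 1.18 of this (SE 0.16, adjusted p = 3.45e-05).

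Tgfb2 ended lower than it began. It had 9.82 and 9.94 at E12, 10.09 and 9.96 at E14, 10.03 and 9.99 at E16, 9.38 and 9.46 at E18, 9.79 and 9.60 at P2, 10.32 and 10.51 at P10, and 8.65 and 8.46 in Adult. Both P10 arrays were above all others and both Adult arrays below all others, and all 4 probe sets of Tgfb2 had their highest mean at P10. The Adult mean was 3.64-fold below that of P10 (difference -1.86, SE 0.11, adjusted p = 5e-08). Tgfb3, known for its role in palate fusion and lung maturation, had 8.85 and 8.84 at E12, 9.0 and 9.07 at E14, 8.13 and 8.28 at E16, 7.94 and 7.89 at E18, 8.51 and 8.59 at P2, 9.80 and 9.88 at P10, and 8.85 and 8.73 in Adult. It was lowest at E18 and highest at P10, with a span of 3.79-fold, and the difference between Adult and E12 did not pass.

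Among BMP ligands Bmp6 changed most. Its values were 5.73 and 4.99 at E12, 5.14 and 5.27 at E14, 5.78 and 5.84 at E16, 7.98 and 7.72 at E18, 8.28 and 8.19 at P2, 8.92 and 8.89 at P10, and 10.50 and 10.73 in Adult. The arrays up to E16 all had a low signal, and every later time point lay above the one before it. Adult was 38.3-fold above E12 (difference 5.26, SE 0.18, adjusted p = 2.24e-11); its early signals were below the array medians, so the size of this fold is uncertain. The steps to E18 (2.04, SE 0.18, adjusted p = 1.01e-06) and from P10 to Adult (1.71, SE 0.18, adjusted p = 1.17e-05) were its largest.

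Bmp2, a BMP with roles in heart and bone formation, was low up to E16 and again in Adult. It had 6.39 and 6.44 at E12, 6.49 and 6.22 at E14, 6.03 and 6.13 at E16, 7.72 and 7.85 at E18, 7.79 and 7.66 at P2, 8.28 and 8.71 at P10, and 6.88 and 6.94 in Adult. E18 was 3.27-fold above E16 (adjusted p = 2.65e-07), where the E16 signal was below the array medians and the size is uncertain, and Adult was 3.01-fold below P10 (adjusted p = 1.22e-06). Bmp4, the BMP of the distal lung buds, was 2.13-fold higher in Adult (11.20 and 11.13) than at E12 (10.10 and 10.04; difference 1.09, SE 0.12, adjusted p = 1.6e-06), but none of its 6 steps passed. The time-point means of Bmp5 stayed within 0.65 of each other, with the highest at P10. Its other probe sets were highest at E14 and E16 and did not pass at P10 against P2 (adjusted p = 0.64 and 0.222). Bmp7 was 0.47 lower in Adult than at E12 (SE 0.099, adjusted p = 0.000917). The activin subunit genes had low signals by the probe sets that stand for them: Inhba had a Range of 0.13 (F test, adjusted p = 0.895), and Inhbb was 0.48 higher in Adult than at E12 (SE 0.11, adjusted p = 0.0013).

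Among the receptors, 6 of 11 had a higher level in Adult than at E12 and 4 a lower one, where 35% of all genes were higher and 30.2% lower. Acvr1 did not pass, and the direction of Acvr2a, among the 6, depends on the probe set. The rise was led by Acvrl1 (ALK1), the type I receptor of endothelial cells for BMP9 and BMP10. Its values were 6.89 and 6.94 at E12, 7.64 and 8.03 at E14, 8.31 and 8.38 at E16, 9.75 and 9.89 at E18, 9.99 and 9.97 at P2, 10.13 and 10.05 at P10, and 11.07 and 11.07 in Adult. No 2 time points overlapped. Adult was 17.9-fold above E12 (difference 4.16, SE 0.12, adjusted p = 3.64e-12).

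Bmpr2, the type II BMP receptor whose mutations cause familial pulmonary arterial hypertension, had 10.72 and 10.71 at E12, 10.76 and 10.58 at E14, 10.81 and 10.83 at E16, 11.57 and 11.52 at E18, 12.25 and 12.26 at P2, 12.37 and 12.50 at P10, and 13.21 and 13.31 in Adult. Its arrays up to E16 lay close together, and all later ones were above them. Adult was 5.84-fold above E12 (difference 2.55, SE 0.09, adjusted p = 2.86e-11). The time-point means of Bmpr2 and Bmp6 had a Pearson r of 0.987 over the 7 time points, which share their arrays. It was the highest of all pairs of changed genes, and other pairs were close to it, such as Acvrl1 and Smad7 (0.985).

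The TGF-beta receptors did not move together. Tgfbr2, the type II receptor, had 10.12 and 10.06 at E12, 10.54 and 10.62 at E14, 10.84 and 10.88 at E16, 12.15 and 12.07 at E18, 11.95 and 11.98 at P2, 12.29 and 12.12 at P10, and 12.32 and 12.27 in Adult. All arrays from E18 on were above all earlier ones, and no step after E18 passed. A dimmer probe set of Tgfbr2, also called changed, had its highest mean at E18. The co-receptor Tgfbr3 (betaglycan), which presents TGF-beta2 to the type II receptor, had 9.49 and 9.47 at E12, 9.68 and 9.71 at E14, 10.13 and 10.17 at E16, 11.57 and 11.58 at E18, 10.75 and 10.75 at P2, 11.02 and 10.85 at P10, and 11.60 and 11.35 in Adult. It had a local maximum at E18, with P2 1.76-fold lower (adjusted p = 9.76e-05), and the Adult arrays lay on both sides of the E18 ones. The other probe set of Tgfbr3 had its highest mean in Adult. The type I receptor Tgfbr1 was 1.58-fold lower in Adult (9.96 and 9.93) than at E12 (10.63 and 10.59; adjusted p = 1.72e-05), and none of its steps passed by this probe set. The 2 dimmer probe sets gave -1.57 and -1.26 between Adult and E12 and passed at E18 against E16, with -0.72 (adjusted p = 0.0329) and -0.57 (adjusted p = 0.0199).

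**Figure D2:**
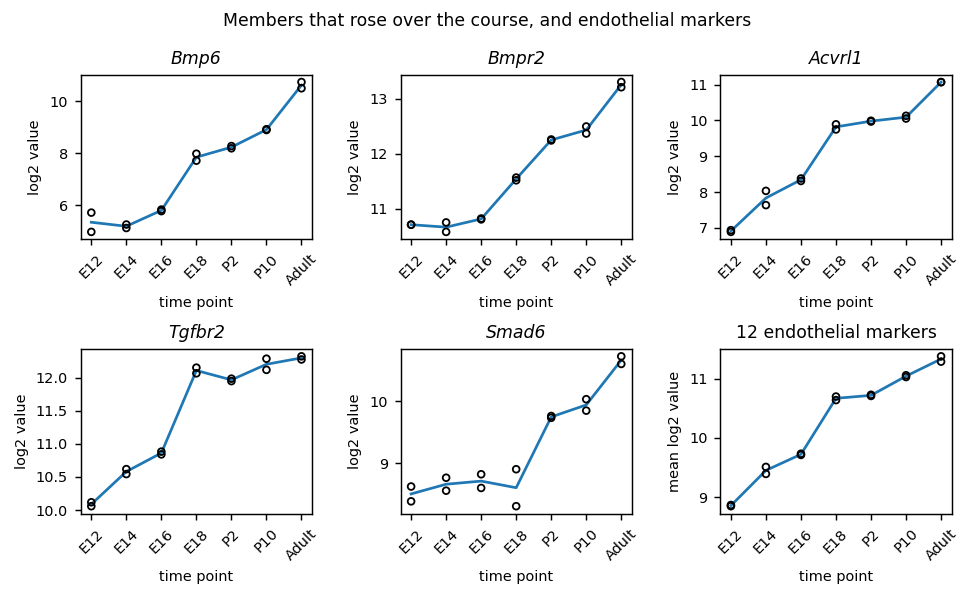
Log2 signal by time point for Bmp6, Bmpr2, Acvrl1, Tgfbr2 and Smad6, and the mean log2 signal of 12 endothelial markers in the last panel. Points are single arrays, lines join the means of 2 arrays, and each panel has its own signal axis. Bmp6 and Acvrl1 span 5.26 and 4.16 log2 units between E12 and Adult, and Tgfbr2 levels off at E18.

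The type I receptor genes Bmpr1a and Bmpr1b fell. Bmpr1b, known from the cartilage of the limb, had 8.14 and 7.95 at E12, 7.80 and 7.89 at E14, 6.81 and 6.99 at E16, 6.84 and 6.65 at E18, 6.7 and 6.77 at P2, 6.03 and 6.12 at P10, and 6.91 and 6.90 in Adult. Its main drop was from E14 to E16, its minimum was at P10, and Adult was 0.83 above P10 (SE 0.1, adjusted p = 4.76e-05). Bmpr1a, the widely expressed form, was 1.66-fold lower in Adult than at E12 (adjusted p = 3.74e-06). Among the activin receptors, Acvr1b was 1.17 higher in Adult than at E12 (SE 0.089, adjusted p = 5.47e-08), Acvr2b was 0.6 lower (SE 0.15, adjusted p = 0.00401) and Acvr1 reached its highest mean at P10. Acvr2a was 0.44 higher by the probe set that stands for it and -0.46 by its other one, both past the threshold, so no direction is given for the gene.

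The receptor SMADs and Smad4 had a Range of 0.89 or less by the probe sets that stand for them. Smad4, the shared partner, had 11.29 and 11.17 at E12, 11.18 and 11.22 at E14, 11.02 and 11.13 at E16, 11.30 and 11.16 at E18, 11.07 and 11.17 at P2, 11.06 and 11.24 at P10, and 11.10 and 10.98 in Adult. No time point stood clear of the others, and it did not pass the F test (adjusted p = 0.434). Its other probe sets gave 0.48 at E18 against E16 (adjusted p = 0.00132) for one and -0.31 between Adult and E12 (adjusted p = 0.00464) for the other. Smad2 (difference -0.76, adjusted p = 6.53e-06) and Smad5 (-0.89, adjusted p = 1.63e-06) were lower in Adult than at E12. Smad3 was highest at E18, 0.57 above E16 (SE 0.088, adjusted p = 0.000146), but its other probe sets gave -0.00012 and 0.059 at this step and were highest at E14, and the call was lost with the mean of the probe sets. Smad1 passed in a single step, 0.47 lower in Adult than at P10 (SE 0.15, adjusted p = 0.0285), where its P10 replicates stood apart (9.33 and 9.90) and the call was lost without P10 replicate 2, without either Adult array, under the unmoderated test and with the probe set of the largest Range. Smad9 stayed at a low signal, 5.30 or less in its means.

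The inhibitory SMADs, which are themselves induced by the pathway, rose. Smad6, which acts mainly on BMP signaling, had 8.63 and 8.39 at E12, 8.77 and 8.56 at E14, 8.83 and 8.61 at E16, 8.91 and 8.31 at E18, 9.76 and 9.73 at P2, 9.85 and 10.03 at P10, and 10.72 and 10.60 in Adult. Its arrays before birth overlapped, and all later ones were above them. P2 was 2.2-fold above E18 (adjusted p = 0.000415) and Adult was 4.43-fold above E12 (adjusted p = 5.75e-08). Smad7, which acts on both branches, had 8.50 and 8.44 at E12, 8.68 and 8.72 at E14, 8.80 and 8.93 at E16, 9.39 and 9.08 at E18, 9.17 and 9.27 at P2, 9.44 and 9.53 at P10, and 9.79 and 9.66 in Adult. It was 2.38-fold higher in Adult than at E12 (adjusted p = 2.2e-07), in small steps of which only that from E16 to E18 passed. That call was lost without E16 replicate 1, without E18 replicate 1 and with the mean of both probe sets, and the other probe set gave 0.038 at this step (adjusted p = 0.911).

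The LTBPs, which hold latent TGF-beta in the matrix and take part in elastic fibre formation, were all higher in Adult than at E12. Ltbp2, a member that binds fibrillin rather than TGF-beta, had the widest Range of the 44 genes. It had 6.16 and 5.86 at E12, 6.94 and 7.24 at E14, 8.53 and 8.44 at E16, 9.60 and 9.58 at E18, 10.45 and 10.61 at P2, 11.97 and 12.37 at P10, and 10.17 and 10.20 in Adult. It rose at each of the 5 steps to P10, to 71.3-fold above E12, and all 6 steps passed. The E12 signal was below the array medians, so the size of folds against it is uncertain. Adult was then 3.95-fold below P10 (difference -1.98, SE 0.14, adjusted p = 3.66e-07) and 18.1-fold above E12 (difference 4.17, SE 0.14, adjusted p = 2.18e-11).

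Ltbp3 had 9.59 and 9.70 at E12, 10.21 and 10.14 at E14, 10.60 and 10.58 at E16, 11.56 and 11.39 at E18, 11.24 and 11.24 at P2, 11.74 and 12.30 at P10, and 11.11 and 11.09 in Adult. Both P10 arrays were above all others, and Adult was 1.88-fold below P10 (adjusted p = 0.000269). One of its 3 other probe sets, a dimmer one, gave -0.56 between Adult and E12 (SE 0.18, adjusted p = 0.0159) where the probe set that stands for the gene gave 1.46. All 4 probe sets of Ltbp3 were higher at P10 than at P2, by 0.66 to 0.85. Ltbp4, the LTBP whose loss in mice causes emphysema-like lungs, had 8.49 and 8.24 at E12, 8.87 and 8.68 at E14, 8.79 and 9.01 at E16, 10.26 and 9.90 at E18, 9.90 and 9.90 at P2, 9.74 and 9.69 at P10, and 10.64 and 10.60 in Adult. It rose at E18 and again after P10. Ltbp1 was highest in Adult (9.04 and 9.18) and lowest at E16 (7.87 and 7.88), a span of 2.35-fold.

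**Figure D3:**
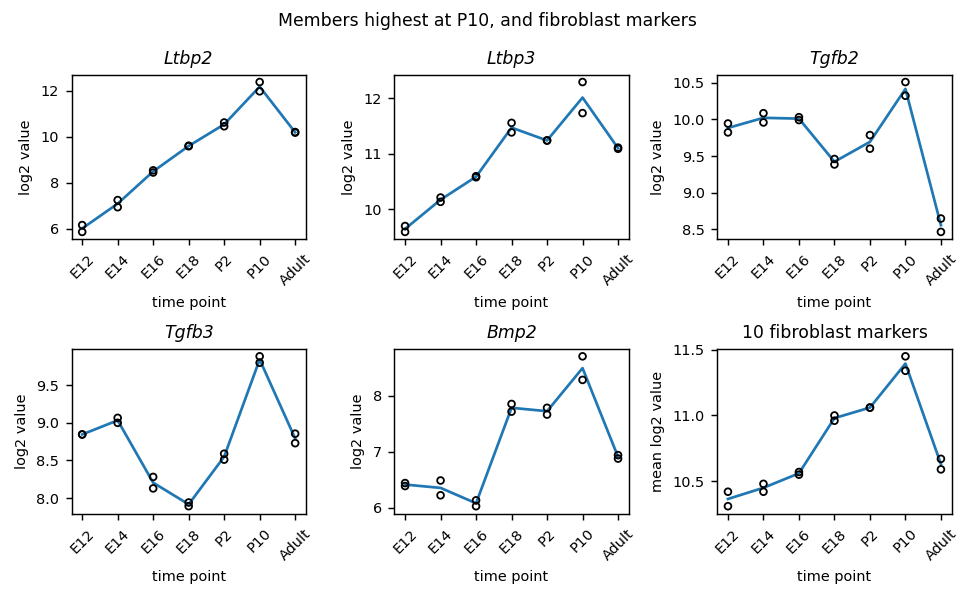
Log2 signal by time point for Ltbp2, Ltbp3, Tgfb2, Tgfb3 and Bmp2, and the mean log2 signal of 10 fibroblast and mesenchyme markers in the last panel. Points are single arrays, lines join the means of 2 arrays, and each panel has its own signal axis. Ltbp2 has 10.17 and 10.20 in Adult, against 11.97 and 12.37 at P10.

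The secreted antagonists had low signals throughout. Nog (noggin), the only one of them with a Range near 1, had 5.82 and 5.90 at E12, 5.99 and 5.95 at E14, 5.90 and 5.76 at E16, 5.23 and 4.89 at E18, 5.79 and 5.51 at P2, 5.65 and 5.72 at P10, and 4.97 and 5.04 in Adult. E18 and Adult stood below the other time points. Adult was 0.85 below E12 (SE 0.12, adjusted p = 3.01e-05). Grem1 (gremlin) was 0.59 higher at P10 than at P2 (SE 0.12, adjusted p = 0.0115). This call was lost without P2 replicate 1 or 2, without P10 replicate 1 and under the unmoderated test. Chrd (chordin) was 0.42 lower in Adult than at E12 (SE 0.11, adjusted p = 0.00535), a call lost without Adult replicate 2. Fst (follistatin, which binds activin) did not pass the F test (adjusted p = 0.0713).

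Bambi, a membrane decoy receptor without a kinase domain, fell in small steps. Those from E16 to P10 passed (the step to P2 not without P2 replicate 2). Its step to P10 (limma, adjusted p = 0.0219) was not followed gene by gene under the alternatives. Under the unmoderated test, 1 gene passed as lower at P10 against P2, in place of 2 (Bmpr1b and Bambi). Bambi had 10.80 and 10.85 at E12, 10.73 and 10.54 at E14, 10.59 and 10.51 at E16, 10.03 and 10.22 at E18, 9.64 and 9.52 at P2, 8.99 and 9.23 at P10, and 8.99 and 9.10 in Adult. Adult was 3.44-fold below E12 (difference -1.78, SE 0.11, adjusted p = 6.84e-09), and P10 and Adult overlapped. The ubiquitin ligases Smurf1 (0.64 higher in Adult than at E12, adjusted p = 0.000712) and Smurf2 (1.18 higher, adjusted p = 2.99e-08), which mark receptors and SMADs for degradation, rose. The SMAD corepressor gene Skil (SnoN) was 0.53 higher (adjusted p = 0.00218), with its highest mean at P10.

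The ID genes are direct BMP targets that block basic helix-loop-helix factors, and Id1 and Id3 dipped at E18. Id3 had 11.10 and 11.33 at E12, 11.12 and 11.16 at E14, 11.41 and 11.22 at E16, 10.57 and 10.56 at E18, 11.29 and 11.26 at P2, 11.50 and 11.65 at P10, and 10.97 and 10.91 in Adult. Both E18 arrays were below all others. E18 was 0.75 below E16 (SE 0.1, adjusted p = 4.94e-05) and P2 was 0.71 above E18 (SE 0.1, adjusted p = 0.000412). Id1 was at 11.09 and 10.98 at E16, 10.44 and 10.52 at E18, and 10.94 and 10.86 at P2. Id4 was at 9.12 and 9.13 at E14, 8.21 and 8.45 at E16, 8.29 and 8.24 at E18, and 9.06 and 8.76 at P2, so that its drop came a step earlier.

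Between Adult and E12, 21 of the 44 genes passed as higher and 12 as lower (adjusted p under 0.05, 75%, where 65.2% of all genes passed, 35% higher and 30.2% lower). Among the measured genes 81.1% of the pathway genes passed, against 82% of all, so this count is near the background. The median difference was 0.08 over the 44 genes and 0.08 over all genes. With a stricter rule (a difference above 1.2 and the higher mean above 7), 11 of the 44 were higher, where 11.5% of all genes were, and 2 of the 44, Bambi and Tgfb2, were lower, where 9.84% of all genes were.

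**Figure D4:**
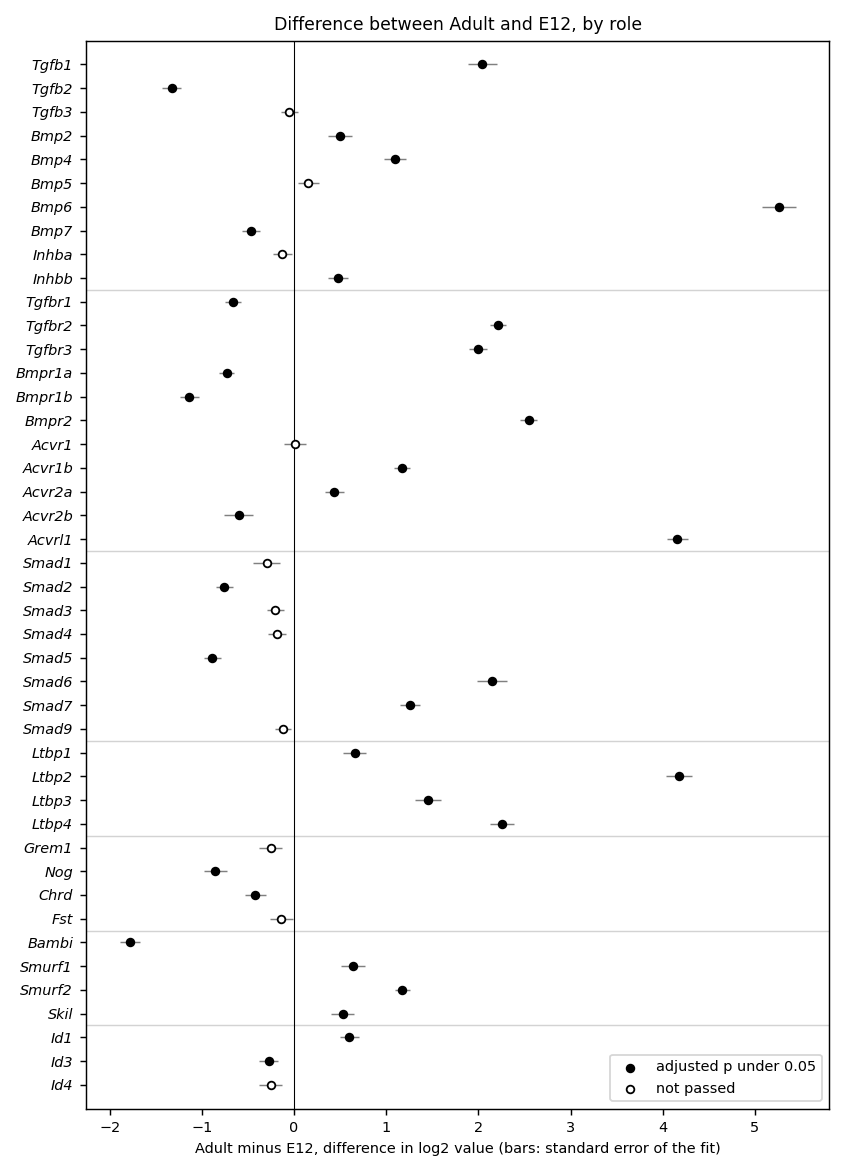
Difference of log2 signal, Adult minus E12, for the 44 genes grouped by role. Points are the differences of means of 2 arrays, filled where the adjusted p was under 0.05 and open otherwise, and bars are the standard error of limma. Bmp6, Ltbp2 and Acvrl1 lie beyond 4, and Bambi at -1.78 is the lowest.

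The steps between neighbouring time points differed in how many of the 44 genes passed. From E12 to E14, 4 were higher and 1 lower (11.4%; of all genes 4.33% passed, 3.41% higher and 0.918% lower): Tgfb1, Tgfbr2, Acvrl1 and Ltbp2 rose and Acvr2b fell. The call for Acvr2b (adjusted p = 0.0422) was lost with the replicate block, under the unmoderated test, with the mean of the probe sets, and in 9 of the 14 fits without a single array, among them those without E12 replicate 1, E12 replicate 2 or E14 replicate 2. At E16 against E14, 8 were higher and 5 lower (29.5%; of all genes 20.5%, 9.95% higher and 10.6% lower). At E18 against E16, the largest step, 19 were higher and 8 lower (61.4%; of all genes 46.4%, 24.8% higher and 21.6% lower), among them 7 receptors and all 4 LTBPs on the higher side. At P2 against E18, 8 were higher and 4 lower (27.3%; of all genes 18.6%, 8.58% higher and 10% lower). At P10 against P2, 8 were higher and 2 lower (22.7%; of all genes 9.18%, 4.82% higher and 4.37% lower). At Adult against P10, 12 were higher and 14 lower (59.1%; of all genes 31.7%, 16.8% higher and 14.9% lower). Taken over measured genes, the pathway shares and the background were 13.5% and 6.1% at E14, 35.1% and 29% at E16, 70.3% and 63.8% at E18, 29.7% and 25.6% at P2, 24.3% and 12.7% at P10, and 64.9% and 42.5% in Adult. In percentage points, the shares among measured genes stood furthest from the background at the steps into P10 and out of it. As a ratio to the background, the share at E14 against E12 stood furthest (13.5% and 6.1%). Single arrays weighed on the counts: 2 genes passed at E14 without E12 replicate 2 or E14 replicate 2, 5 at E16 without E14 replicate 1, 8 at E16 without E16 replicate 1, 7 at P2 without P2 replicate 1, and 6 at P10 without P2 replicate 1 or 2.

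**Figure D5:**
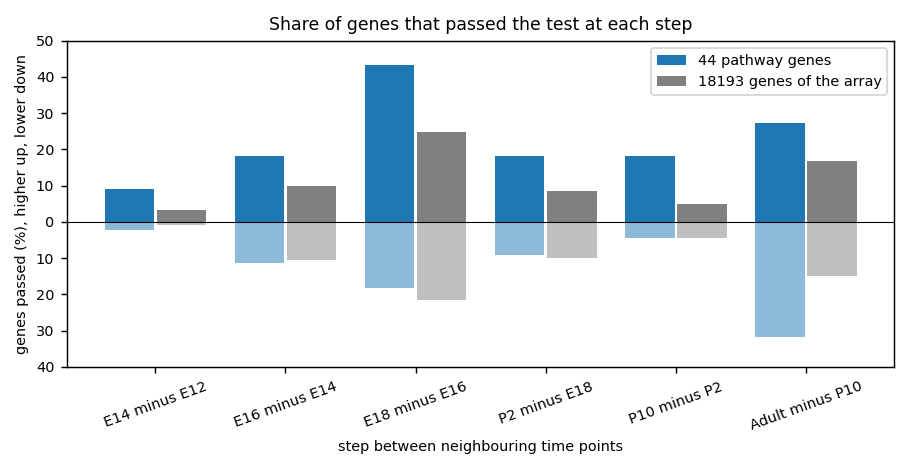
Share of genes in percent that passed at an adjusted p under 0.05 in each step between neighbouring time points, for the 44 pathway genes (blue) and all genes of the array (grey). Bars start at 0, with genes higher at the later time point drawn upward and lower ones downward. In Adult against P10, the bars of both directions add up to 59.1% of the pathway genes and 31.7% of all genes.

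A maximum at P10, with both P10 against P2 higher and Adult against P10 lower at an adjusted p under 0.05, was found for 7 of the 44 genes (15.9%, or 16.2% of the measured pathway genes, where 2.41% of all genes and 3.31% of the measured ones passed): Tgfb2, Tgfb3, Bmp2, Bmp5, Ltbp2, Ltbp3 and Grem1. Both comparisons use the same 2 P10 arrays. With any single array left out, Tgfb2, Tgfb3, Bmp2, Ltbp2 and Ltbp3 still passed both, whereas Bmp5 and Grem1 did not always. For Bmp5 the maximum rests on 1 of its 3 probe sets. P10 replicate 2 was above replicate 1 in all 5 of these, most in Ltbp3 (11.74 and 12.30). The 10 markers of fibroblasts and mesenchyme also had their highest mean level at P10, with 11.06 and 11.06 at P2, 11.34 and 11.45 at P10, and 10.67 and 10.59 in Adult. Of these markers 6 were higher at P10 than at P2, among them Pdgfrb and Col1a1, and 8 were lower in Adult than at P10. In whole lung, fewer cells of a type and less RNA per cell cannot be told apart, and the part of such cells in the P10 maximum was not tested.

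A minimum at E18, lower than E16 and followed by a higher P2, was found for Tgfb3, Nog, Id1 and Id3 (9.09%, or 8.11% of the measured pathway genes, where 3.56% of all genes and 5.09% of the measured ones passed). With single arrays left out the count ran from 2 to 4, and Id3 was in it each time. The 8 smooth muscle markers had their lowest mean level at E18, with 9.27 and 9.29 at E16, 8.47 and 8.55 at E18, and 9.68 and 9.58 at P2. Of these, 4 were lower at E18 than at E16 and 5 were higher at P2 than at E18. The 9 markers of dividing cells dipped at E18 too, with mean levels of 11.09 at E16, 8.415 at E18 and 9.019 at P2. All 9 were lower at E18 than at E16, and 6 were higher at P2 than at E18. Their lowest mean level was in Adult, at 6.951. The part of smooth muscle or dividing cells in the E18 minimum was not tested. A local maximum at E18 was found for Tgfbr3, Acvr2a and Smad3 (6.82%, background 6.48%), which is near the background.

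A rise at E18 and again in Adult against P10 was found for 8 genes (18.2%, background 10.3%): Bmp6, Tgfbr3, Bmpr2, Acvr1b, Acvrl1, Ltbp1, Ltbp4 and Smurf2. Among measured genes the share was 21.6%, against a background of 14.3%. The endothelial markers rose too: all 12 were higher in Adult than at E12, 11 were higher at E18 than at E16, and their mean level was 8.87 and 8.85 at E12, 10.70 and 10.64 at E18, and 11.29 and 11.38 in Adult. In Adult against P10, however, 5 of the 12 were higher and 1 lower. Of 6 markers of alveolar type I cells, 6 were higher at E18 against E16 and 5 in Adult against P10. Of 7 leukocyte markers, 5 and 7 were higher at these steps. The part of a larger share of endothelial or other cells in the rise of Acvrl1, Bmpr2 and Bmp6 was not tested. The markers of dividing cells moved the other way, with a mean of 7.04 and 6.86 in Adult, against 11.44 and 11.44 at E12. By the probe sets that stand for them, no step passed for 8 genes (18.2%, background 36.7%): Bmp4, Inhba, Inhbb, Tgfbr1, Smad4, Smad9, Chrd and Fst. Of these, Inhba, Inhbb, Smad9, Chrd and Fst did not count as measured. Among measured genes the share was 8.11%, against a background of 16.8%. Other probe sets of Inhbb, Tgfbr1 and Smad4 passed at E18 against E16.

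Lung epithelial markers were present on every array (mean 9.18 and 9.16 at E12). E16 replicate 1 stood apart by heart muscle genes, with a mean of 10.58 over 9 genes against 7.97 in replicate 2. On this array 5 thymus markers had a higher mean as well, 6.14 against 5.37 in replicate 2, both below the array medians. Without this array, 4 of the 44 genes were higher and 4 lower at E16 against E14 in place of 8 and 5, and 18 were higher and 6 lower at E18 against E16 in place of 19 and 8.

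The wider pathway was followed in 92 other genes with a probe set, out of a list of 103. Between Adult and E12, 44 were higher and 27 lower (77.2%, where of all genes 65.2% passed, 35% higher and 30.2% lower). Of all measured genes 82% passed, and the share among the measured of the 92 was not taken, so no excess is read from this count. The co-receptor gene Eng (endoglin), the partner of ACVRL1 in endothelium, was 2.82 higher in Adult (11.71) than at E12 (8.89; adjusted p = 1.09e-10). Cdkn2b, which encodes a cell cycle inhibitor induced by TGF-beta, was 4.14 higher (9.77 in Adult, against 5.63 at E12; adjusted p = 1.47e-12), with 3.2 at E18 against E16. Fbn2, the fibrillin of the embryo to which latent TGF-beta complexes bind, was 6.34 lower (5.14 in Adult, against 11.47 at E12; adjusted p = 7.06e-12). The E12 mean of Cdkn2b and the Adult mean of Fbn2 were below the array medians, so the sizes are uncertain.

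Of 12 genes that bind, release or activate latent TGF-beta, 5 were higher at P10 than at P2 and none lower (41.7%, background 9.18%). In Adult, 8 were lower and 1 higher than at P10 (75%, background 31.7%). Among measured genes the backgrounds were 12.7% and 42.5%, and the shares among the measured of the 12 were not taken. Itgb8, the integrin subunit that activates TGF-beta, had means of 4.80 at P2, 6.47 at P10 and 4.61 in Adult, with differences of 1.67 for P10 against P2 (adjusted p = 0.000339) and -1.86 for Adult against P10 (adjusted p = 1.74e-05). All 3 means were below the array medians and the Max threshold, so the sizes are uncertain. Mmp14, a membrane protease, was at 8.91 in Adult, against 11.21 at P10 (difference -2.3, adjusted p = 8.81e-09). Tgfbi, a matrix gene named for its induction by TGF-beta, was at 10.10 in Adult, against 13.28 at P10 (difference -3.19, adjusted p = 4.69e-08). The markers of fibroblasts and mesenchyme moved the same way at this step (8 of 10 lower), and their part in these differences was not tested.

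For 30 of the 44 genes more than 1 probe set carried the symbol. Of the 53 other probe sets, 30 passed between Adult and E12 where the one that stands for the gene passed, 28 of them in the same direction and those of Acvr2a and Ltbp3 in the opposite one. Another 7 passed where the one that stands for the gene did not. For Inhbb the dimmer probe set gave 3.15 (SE 0.14, adjusted p = 2.01e-10), against 0.48 from the brighter one, so the size of its rise depends on the probe set. The same holds for Smad5, with -2.16 and -0.89, for Bmp7, with -1.7, -1.47 and -0.47, and for Tgfbr1, with -1.57, -1.26 and -0.66.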

How the data were processed

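The series matrix held log2 values of 14 arrays, made by the authors with Partek 6.4. Whether RMA, which the methods name, or GCRMA, which the submitters' processing notes name, gave them is not settled. Both use background correction and quantile normalization, which removes differences in total signal between arrays. The values were used as deposited, without 64 control probe sets. Gene symbols came from the platform annotation (34945 of 45037 probe sets with 1 symbol).

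In limma 3.58.1 (R 4.3.3), 1 model with a mean per time point covered all 45037 probe sets, with moderated, two-sided tests. P-values were adjusted by Benjamini-Hochberg over the whole array. Array values ran from 2.53 to 14.99, and the number of arrays limits the precision (residual df 7; median residual SD 0.107). The script was tested on simulated data. The 45 genes and all lists were chosen with earlier results of these data known. By the rule for named genes all 45 are accounted for, with array values for those of the largest Range in each role. Alternatives were a replicate block, other normalizations, probe set choices and variance models, a natural spline, no thresholds, and each array left out in turn. Promoters came from RefSeq (GRCm38.p6).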

Additional observations from a re-analysis of the deposited data

How the results depend on the processing

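The count of 17 genes changed across the 7 time points was 40 without the thresholds on Max and Range, 15 with a natural spline and 16 to 19 with single arrays left out. The 33 differences between Adult and E12 ranged from 31 to 34 with single arrays left out. Under the methods' unmoderated test, 3 genes passed at E14 against E12 in place of 5, and 6 at P10 against P2 in place of 10; with a prior variance that follows intensity, 8 passed at E14 against E12. Leaving out single arrays gave 2 to 6 genes at E14 against E12 (2 without E12 replicate 2 or E14 replicate 2), 5 to 14 in place of 13 at E16 against E14 (5 without E14 replicate 1, 8 without E16 replicate 1), 19 to 27 at E18 against E16, 7 to 13 in place of 12 at P2 against E18 (7 without P2 replicate 1), 6 to 10 at P10 against P2 (6 without P2 replicate 1 or 2) and 19 to 26 at Adult against P10. The lone array of a time point was then assumed to vary like the others. Such a fit also has fewer arrays, and the causes of the changed counts were not tested. With the mean of both probe sets, Acvr2a gave -0.009167 between Adult and E12 (adjusted p = 0.925), in place of 0.44. Of the 69 single-gene differences followed, no other changed its sign under any alternative run.

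Replicates with the same number did not deviate together (correlations of -0.18 to 0.08 over 21 pairs of time points, none above 0.1), so they share only a number. With the replicate block the counts were 17 across the time points, 33 for Adult against E12, and 4, 11, 26, 12, 9 and 25 for the 6 steps in order.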
